A study of Mus musculus with 9 samples.

Results

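Brown adipose tissue (BAT) of control mice was compared with control brown adipocytes in culture, in the 4 libraries of the series in which Setdb1 was neither deleted nor knocked down, of 9 libraries in all. The tissue side was 2 mice labelled Control, with the genotype Setdb1 fl/fl; Adipoq-Cre-, so both carried floxed alleles of the gene of the histone methyltransferase SETDB1 and no recombinase. The culture side was 2 libraries of primary brown adipocytes from separate experiments. The ETOH library came from Setdb1 flox/flox; Rosa26Cre-ERT2 cells, which carry a tamoxifen-inducible recombinase at Rosa26, given the ethanol vehicle. The siNC library came from cells transfected with a control siRNA, whose genotype the labels do not give. The age, sex and housing of the mice, the prefix TN_CE in the names of the BAT libraries, and the medium, passage and day of differentiation of the cells were not explained in the labels. All libraries were made from RNA enriched with oligo(dT) beads with a NEBNext Ultra II kit.

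Tissue and culture were separate experiments in separately scaled tables, so a difference between them cannot be told apart from a difference between experiments, and no test was made. An exact permutation test of 2 against 2 libraries could not give a p-value under 0.333 in any case. The ETOH and siNC libraries are not replicates of each other, so each library's value is given, in CPM (the counts of a gene scaled to the same total of reads on genes in every library). A gene is called higher on a side only where both libraries of that side lay at least 2-fold above both of the other, which is called separated below. "The nearest libraries" are the lowest library of the higher side and the highest of the lower side. In bulk RNA, fewer cells of a type and less RNA of a gene per cell cannot be told apart.

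Brown adipocytes burn fatty acids to make heat. Noradrenaline from sympathetic nerves acts on beta-adrenergic receptors, raises cyclic AMP, releases fatty acids from lipid droplets and induces genes such as that of uncoupling protein UCP1, which lets protons leak across the inner mitochondrial membrane. In the animal these cells lie among capillaries, nerves, fibroblasts, pericytes and immune cells. In culture, precursor cells are grown on plastic and differentiated with hormones, in general without nerves, blood flow or cold.

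The tissue libraries held 16940622 and 15979479 reads on genes, the ETOH library 29911734 and the siNC library 18468152. Setdb1 itself (ENSMUSG00000015697, GRCm38 chromosome 3, 95323525 to 95357202) read 29.3 and 29.2 CPM in the mice, 35.8 in ETOH cells and 42.99 in siNC cells, and the sides lay apart by less than 2-fold. The mice resembled each other more than the cultures did, with a Spearman correlation across 13984 genes of 0.987 between the mice and 0.836 between the cultures, a description only, since genes are not independent. Of these genes, 6.11% differed at least 2-fold and 0.665% at least 4-fold between the mice, against 40.2% and 13.3% between the cultures. The ETOH library stood apart in several ways. Gm26917, annotated as a long noncoding RNA, took 6.40% of its reads, against at most 0.0169% in the other 3 libraries. Malat1, a nuclear RNA, took 1.08%, against at most 0.0295%. Which transcripts the Gm26917 reads came from was not tested. Mitochondrially encoded genes took 1.98% of its reads, against 12.7% and 16.6% in the mice and 9.79% in siNC cells. What these values contributed to the results was not tested. The 4 measured Y-linked genes had 0 reads in both mice and were read in both cultures: Ddx3y, an RNA helicase, read 70.1 CPM in ETOH cells and 7.96 in siNC cells. Xist, which silences an X chromosome in female cells, read 332 and 324 CPM in the mice, 358 in ETOH cells and 332 in siNC cells. By these genes both mice read as female, while each culture held reads of both Xist and Y-linked genes. A difference of sex between the sides cannot be told apart from the other differences.

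Of 13984 genes with at least 1 CPM in at least 2 libraries, 972 (6.95%) were higher in tissue and 1944 (13.9%) were higher in culture. With any gap between the sides, 2934 (21%) were higher in tissue and 5680 (40.6%) in culture, and the remaining genes overlapped. The median log2 difference of all genes, tissue minus culture, was -0.29, and lists are read against that value. Counts of list members are read against the shares of all genes, 6.95% in tissue and 13.9% in culture. The split between the sides moved with the scaling: with TMM factors 1289 genes were higher in tissue and 1437 in culture, and with median-of-ratios size factors 1342 and 1384. Of the genes described as higher in culture below, Cnn1, Tagln, Cpt1a, Pdgfrb, Hells, Suv39h1, Peg3, Per3, Phgdh, Ryr2 and Slc25a10 fell under the 2-fold gap with either, and Calcrl and Pdk1 with size factors, while Ereg missed the filter on low values with either. Without ETOH the counts were 1825 and 2994, and without siNC 2168 and 3815, because fewer libraries then have to lie on one side. For the same reason most lists below gain genes against a single culture, and those counts are given, tissue first and culture second, where they moved by over 1.5 times. Where another scaling moved a list by as much, its counts or the calls it ended are given too.

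**Figure D1:**
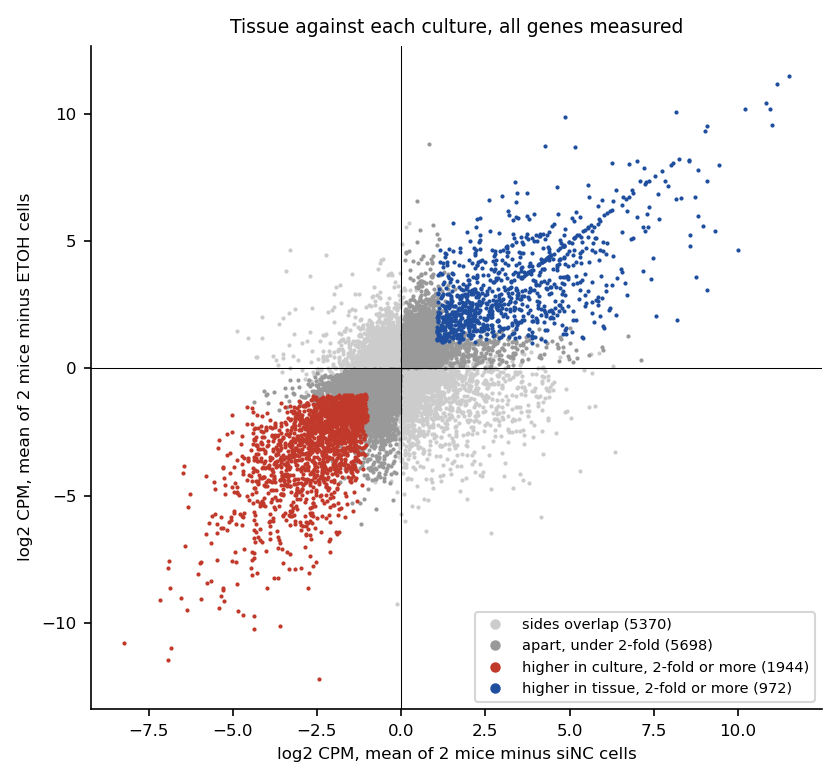
Each point is a gene, with its log2 CPM difference from siNC cells to the mean of the 2 mice on the x axis and from ETOH cells on the y axis. The 972 blue genes are at least 2-fold higher in both mice than in both cultures and the 1944 red genes are at least 2-fold lower. Grey genes lie apart by less than 2-fold or overlap.

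Of 15 adipocyte markers, 8 overlapped, a bare majority. Higher in tissue were 2 and in culture 0, against 6.95% and 13.9% of all genes, and the median was 0.38. The counts were 3 and 2 against siNC cells alone and 8 and 0 against ETOH cells alone. Adipoq, the gene of adiponectin, read 834 and 788 CPM in the mice, 654 in ETOH cells and 932 in siNC cells, with both mice inside the range of the cultures. Fabp4, a fatty acid binding protein, read 7018 and 7126 CPM in the mice, 4791 in ETOH cells and 7942 in siNC cells. Pparg, the receptor that drives fat cell differentiation, read 289 and 316 CPM in the mice, 144 in ETOH cells and 444 in siNC cells. Both also overlapped, as did Plin1, Cebpa and Cd36. The markers that were separated were Cfd, which encodes the complement factor adipsin, at 1359 and 1248 against 10.9 and 119 CPM, and the glycerol channel Aqp7, at 369 and 287 against 79.1 and 94.8 CPM. Cfd also differed between the cultures and was among the 5 separated genes with the widest excess of siNC over ETOH. Against siNC cells alone the median of the list was -0.20, and against ETOH cells alone 1.09.

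The nuclear protein-coding genes with the most CPM, which is not divided by gene length, were by the mean CPM of each side in tissue Scd1, Fasn, Fabp4, Ucp1 and Pck1, and in culture Scd1, Fasn, Fabp4, Col1a1 and Thbs1. Scd1, the stearoyl-CoA desaturase, read 29841 and 23436 CPM in the mice, 23647 in ETOH cells and 25301 in siNC cells. Fasn, the fatty acid synthase, read 12755 and 7822 CPM in the mice, 5413 in ETOH cells and 8278 in siNC cells. For both, the sides overlapped. The culture mean pools unlike libraries: Thbs1, at 129 and 179 against 9931 and 654 CPM, ranks there through ETOH cells, and in siNC cells it lay below Lpl, at 5243 CPM. The remaining pair on each list was separated, with Ucp1 and Pck1 higher in tissue and the matrix genes Col1a1 and Thbs1 higher in culture.

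More of the thermogenic genes were higher in tissue than not, and none was higher in culture. Of 29 measured, 15 were higher in tissue, 0 in culture, 9 lay apart by less than 2-fold and 5 overlapped, with a median of 1.84. The counts were 16 and 1 against siNC cells alone and 24 and 2 against ETOH cells alone. Ucp1 (chromosome 8, 83290352 to 83298452) read 6898 and 5431 CPM in the mice, 272 in ETOH cells and 895 in siNC cells. The cultures thus expressed it, but the nearest libraries were 6.07-fold apart. Dio2, the deiodinase that makes active thyroid hormone inside the cell, read 1183 and 1229 CPM in the mice, 8.12 in ETOH cells and 25.8 in siNC cells, with 45.7-fold between the nearest libraries. Ppargc1a, a coactivator of mitochondrial genes, read 985 and 712 CPM in the mice, 22.1 in ETOH cells and 41.5 in siNC cells, with 17.1-fold. For these genes the mice lay closer to each other than the cultures did, and ETOH cells were the lowest library each time.

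Among the other separated thermogenic genes, the lipid droplet protein Cidea read 2136 and 2204 against 120.4 and 974 CPM (the mice, then ETOH and siNC cells, as in all such series). The potassium channel Kcnk3 read 731 and 754 against 104 and 155 CPM. Pank1, a kinase of coenzyme A synthesis, read 352 and 351 against 24.8 and 29.9 CPM, with almost the same value within each side. Cox8b, a cytochrome oxidase subunit of brown fat and muscle, read 465 and 756 against 39.05 and 92.4 CPM. Acot11, an acyl-CoA thioesterase induced by cold, read 87.01 and 69.2 against 5.72 and 10.5 CPM, and the nuclear receptor Ppara 123 and 93.2 against 39.05 and 21.1 CPM. Slc27a2 is a fatty acid transporter and very long chain acyl-CoA synthetase, and it read 352 and 215 against 0.10 and 0.054 CPM. Its culture values stand for 3 and 1 reads.

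Other brown fat genes did not follow. Elovl3, an elongase known from activated brown fat, overlapped at 16.6 and 20.2 against 96.02 and 1.95 CPM, with ETOH cells the highest library and siNC cells the lowest. Zic1, Cpn2, Fgf21 and Sirt3 overlapped too. Prdm16, a transcription factor of brown fat identity, read 108 and 58.6 against 20.1 and 40.4 CPM and Ebf2, another, 59.5 and 51.1 against 70.1 and 125 CPM, in both cases with less than 2-fold between the nearest libraries and in opposite directions.

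**Figure D2:**
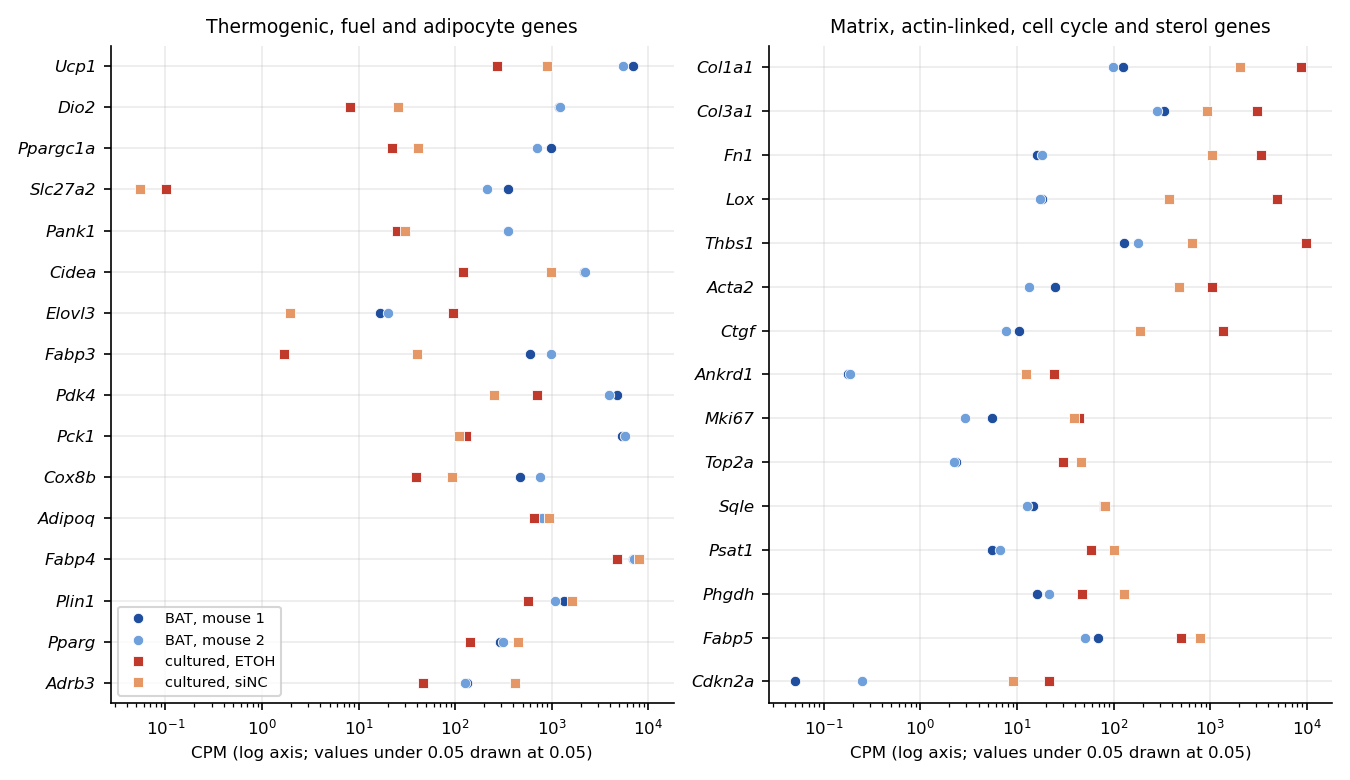
CPM of selected genes in each library, on a log axis, with mice as circles and cultures as squares. In the left panel Ucp1 and Dio2 lie to the right in both mice while Adipoq and Fabp4 overlap, and in the right panel every gene lies to the right in both cultures.

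The uncoupling proteins differed among themselves. Ucp3, the form of muscle and brown fat, was separated at 148 and 68.6 against 4.01 and 13.00 CPM, while Ucp2, the form of immune and many other cells, overlapped at 192 and 128 against 92.8 and 532 CPM. Within the list of 20 mitochondrial carriers and uncouplers, 3 were higher in tissue and 1 in culture, against 6.95% and 13.9% of all genes. The median was 0.34. The counts were 3 and 3 against siNC cells alone and 6 and 2 against ETOH cells alone, and 6 and 0 with TMM factors or size factors. The third on the tissue side was the calcium-regulated ATP carrier Slc25a25, at 128 and 70.5 against 29.3 and 14.9 CPM, and the dicarboxylate carrier Slc25a10 was higher in culture, at 31.4 and 22.3 against 68.4 and 183 CPM, a call lost with TMM factors and with size factors. The list of creatine and calcium cycling, with 8 measured genes, also holds Pm20d1, a secreted enzyme that belongs to neither cycle. Pm20d1 was the only member higher in tissue, at 33.00 and 30.3 against 0.43 and 6.12 CPM. The calcium channel Ryr2 was higher in culture at a low level, 0.47 and 0.50 against 1.77 and 1.14 CPM. That call was lost with each of the other scalings. The counts were 2 and 2 against siNC cells alone and 3 and 1 against ETOH cells alone, against 1 and 1 for both cultures.

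The receptors that receive the sympathetic signal were split. Adrb3, the beta3-adrenergic receptor of fat cells, overlapped: it read 134 and 126 CPM in the mice, 46.4 in ETOH cells and 418 in siNC cells. Adra1a, the alpha1A receptor, read 92.9 and 88.6 against 21.4 and 11.1 CPM. Npr1, the receptor of natriuretic peptides, read 74.97 and 68.5 against 4.65 and 3.90 CPM, the prostaglandin E receptor Ptger3 44.3 and 32.9 against 5.72 and 2.65 CPM and the adenosine receptor Adora2a 25.8 and 13.8 against 2.14 and 0.38 CPM. Of the 24 measured receptors, 5 were higher in tissue and 1 in culture, against 6.95% and 13.9% of all genes. Another 9 lay apart by less than 2-fold and 9 overlapped, with a median of 0.27. The counts were 6 and 2 against siNC cells alone and 9 and 8 against ETOH cells alone. Calcrl, the receptor of the CGRP family, was higher in culture, at 4.07 and 3.13 against 17.8 and 10.3 CPM, by less than 2-fold with size factors. Calcrl, Npr1 and Adora2a are also expressed by vascular, immune or other cells, whose markers are given further on.

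The immediate early genes, which respond within minutes to signals such as cyclic AMP, gave 9 of 22 higher in tissue and 0 in culture, with a median of 1.46. The 3 orphan nuclear receptors of the Nr4a family were among them. Nr4a1 read 479 and 569 CPM in the mice, 70.5 in ETOH cells and 4.87 in siNC cells, Nr4a2 191 and 159 against 5.08 and 8.99 CPM and Nr4a3 594 and 319 against 17.1 and 0.32 CPM. The transcription factor Atf3 read 306 and 425 against 29.2 and 11.9 CPM, the phosphatase gene Dusp1 294 and 394 against 66.1 and 54.3 CPM, and Klf2 and Klf4, which vascular cells also express, 209.7 and 301 against 20.5 and 8.99 CPM and 185 and 164 against 57.8 and 5.74 CPM. Jun and Jund completed the group, with Jund uncertain because 52.6% of its exon bases lie in another annotated gene. Fos, Egr1, Junb and Myc overlapped. So did Egr3, at 2.48 and 8.45 against 73.4 and 1.62 CPM, with ETOH cells the highest library and siNC cells the lowest. The counts of the list were 16 and 0 against siNC cells alone and 9 and 3 against ETOH cells alone. The median was 0.65 against ETOH cells and 2.35 against siNC cells. How long the tissue was held before lysis is not given in the labels.

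Cyclic AMP acts on promoters through the CRE, the binding site of CREB, whose full form is TGACGTCA and whose core is TGACG. The 250 bases before a RefSeq start (GRCm38.p6) of 4 genes higher in tissue are shown to let the reader see where these letters lie. The first start with a match was taken, so the windows were chosen for having these letters. They are in lower case and 5′ to 3′ on the strand of the gene, with each match on either strand in capitals. In Ucp1 and Nr4a1 the capitals mark the core, which reads CGTCA on the other strand, and in Dio2 and Dusp1 they mark the full form only. Their windows are chr8:83290098-83290347 on the plus strand, chr12:90739039-90739288 on the minus, chr15:101266596-101266845 on the plus and chr17:26508473-26508722 on the minus.
Ucp1: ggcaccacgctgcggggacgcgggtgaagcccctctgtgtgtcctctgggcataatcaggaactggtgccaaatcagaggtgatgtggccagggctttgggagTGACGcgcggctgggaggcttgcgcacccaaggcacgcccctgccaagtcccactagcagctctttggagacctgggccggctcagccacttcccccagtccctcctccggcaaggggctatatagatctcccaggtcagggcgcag
Dio2: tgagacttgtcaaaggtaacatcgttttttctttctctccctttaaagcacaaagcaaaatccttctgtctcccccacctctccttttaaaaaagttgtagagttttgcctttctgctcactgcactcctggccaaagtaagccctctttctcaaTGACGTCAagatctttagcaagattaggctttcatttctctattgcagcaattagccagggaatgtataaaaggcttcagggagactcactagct
Nr4a1: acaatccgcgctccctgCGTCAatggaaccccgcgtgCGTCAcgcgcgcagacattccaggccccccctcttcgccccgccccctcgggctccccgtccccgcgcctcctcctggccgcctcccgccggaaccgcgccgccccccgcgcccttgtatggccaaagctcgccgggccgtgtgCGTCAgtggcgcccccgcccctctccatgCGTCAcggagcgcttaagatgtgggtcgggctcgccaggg
Dusp1: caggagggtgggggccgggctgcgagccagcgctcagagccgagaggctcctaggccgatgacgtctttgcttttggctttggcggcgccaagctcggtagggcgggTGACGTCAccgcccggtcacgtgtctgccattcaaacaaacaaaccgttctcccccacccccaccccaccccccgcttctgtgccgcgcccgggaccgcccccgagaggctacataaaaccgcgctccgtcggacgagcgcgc
The full form begins 95 bases before the start in Dio2 and 143 in Dusp1, and the core 147 bases before it in Ucp1. Nr4a1 holds 4 cores. Of 17 immediate early genes in the promoter table, 12 had the core in this window before any of their RefSeq starts (70.6%). So did 7 of the 9 that were higher in tissue (77.8%), near the share of the whole list, against 19.8% of 27025 genes. Of 23 thermogenic genes in the table, 7 had it (30.4%), and of the 12 higher in tissue 4 had it (33.3%). The full form, which contains the core on both strands, was in 2 of the 17 and 1 of the 23, against 1.77% of all genes. A match is a run of letters and not a measured site.

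Fuel handling differed at the level of single enzymes. Pck1, whose product makes glycerol 3-phosphate for re-esterification of fatty acids in fat cells, read 5404 and 5733 CPM in the mice, 130.0 in ETOH cells and 110.5 in siNC cells. The nearest libraries were 41.5-fold apart, with both sides narrow. Of 23 genes of triglyceride synthesis, lipid droplets and lipolysis, 8 were higher in tissue and 0 in culture, with a median of 1.00. The counts were 9 and 2 against siNC cells alone and 12 and 0 against ETOH cells alone. Dgat2 and Dgat1, which add the last fatty acid of a triglyceride, read 1611 and 1519 against 62.2 and 335 CPM and 1164 and 880.3 against 167 and 394 CPM. The droplet coat gene Plin2 read 2056 and 2243 against 491 and 776 CPM and glycerol kinase, Gk, 369 and 335 against 101 and 95.5 CPM. The lipases did not pass the 2-fold gap: Pnpla2 read 3786 and 3647 against 1363 and 2540.2 CPM and Lipe 1661 and 1372 against 405 and 1254 CPM.

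Uptake and activation of fatty acids showed exchanges within families. Fabp3, the heart-type binding protein, read 591 and 989 CPM in the mice, 1.67 in ETOH cells and 39.9 in siNC cells, while Fabp5, the epidermal type, read 68.9 and 50.4 CPM in the mice, 500.1 in ETOH cells and 779 in siNC cells. Fabp3 was thus higher in tissue and Fabp5 in culture, while Fabp4 overlapped, although 37.3% of the 31-base words of Fabp3 also occur in other annotated genes. The lipoprotein lipase gene Lpl read 3252 and 2577 against 3537 and 5243 CPM, whereas Gpihbp1, the endothelial protein that anchors this lipase to capillaries, read 209 and 183 against 0.067 and 0 CPM, its culture values standing for 2 and 0 reads. The acyl-CoA synthetase Acsl5 and the thioesterase Acot2 were higher in tissue, at 222 and 189.6 against 46.6 and 59.6 CPM and 293 and 188 against 66.2 and 48.6 CPM. For Acot2, 37.3% of the 31-base words occur in other genes.

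The ratio of 2 members of a family per kilobase of transcript within a library cannot be moved by scaling between libraries. The pairs were chosen with earlier results of these data known, and the form taken as that of tissue was written first. The number of pairs above therefore follows from that choice and says nothing about pairs in general. By any gap, 19 of 25 pairs had both tissue ratios above both culture ratios, 4 below, and 2 overlapped. Some gaps were far under 2-fold, such as a log2 gap of 0.10 for Eno3 over Eno1. On the log2 scale Fabp3 over Fabp5 was 5.21 and 6.41 in the mice, -6.05 in ETOH cells and -2.17 in siNC cells. Cpt1b over Cpt1a, the muscle and liver forms of the enzyme that admits fatty acids to mitochondria, was 1.08 and 1.60 against -3.48 and -3.52, with nearly the same value in both cultures. That pair is uncertain, since 81.4% of the exon bases of Cpt1b lie in an overlapping annotated gene and reads there may not have been assigned to it. Pdk4 over Pdk1, kinases that shut off pyruvate oxidation, was 6.78 and 7.27 against 2.64 and 1.23.

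The other wide pairs were of the same kind. Ucp1 over Ucp2 was 7.26 and 7.50 against 3.65 and 2.84. Scd1 over Scd2, the adipose and the more widespread desaturase, was 7.44 and 7.46 against 4.49 and 3.00. Since Scd1 overlapped, this gap followed Scd2, which read 193 and 150.2 against 1183 and 3557 CPM. Hk2 over Hk1, the insulin-responsive and the constitutive hexokinase, was 4.26 and 4.06 against 2.02 and 0.78. Cox7a1 over Cox7a2, also used as a brown fat readout, had a gap of only 0.29. In the other direction, Plin5 over Plin2 was -2.94 and -3.26 against -1.55 and -1.43.

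**Figure D3:**
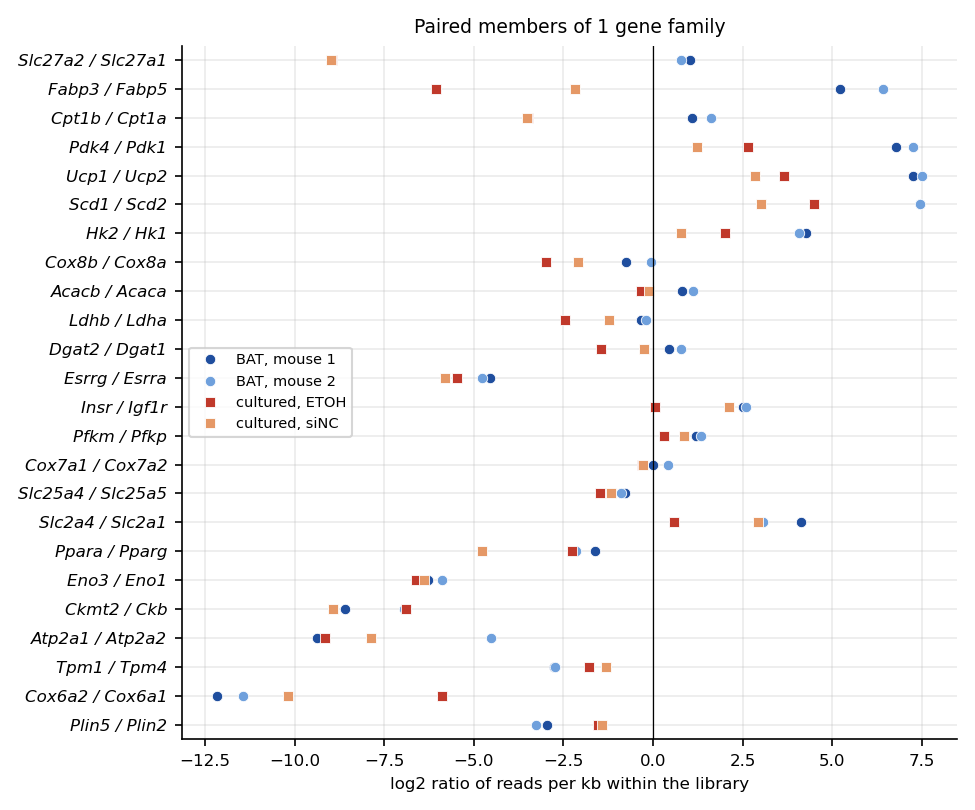
Log2 ratio of reads per kilobase for 24 of the 25 pairs of family members, with circles for mice and squares for cultures. Slc27a2 over Slc27a1 and Fabp3 over Fabp5 have the widest gaps, at the top, and the pairs at the bottom have their cultures to the right.

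Respiratory chain genes did not separate as a group. Of 40 nuclear oxidative phosphorylation genes, 1 was higher in tissue, 1 in culture, 19 lay apart by less than 2-fold and 19 overlapped. Their median was 1.39 against ETOH cells and 0.04 against siNC cells, so the list median of siNC cells lay near that of the tissue while that of ETOH cells was lower. The counts were 1 and 1 against siNC cells alone and 31 and 1 against ETOH cells alone, and 6 and 1 with TMM factors or size factors. Sdha, a subunit of succinate dehydrogenase, read 1845 and 1886 CPM in the mice, 725 in ETOH cells and 1946 in siNC cells, with siNC above both mice. The separated genes were Ndufa1, of complex I, at 205 and 224 against 41.6 and 80.5 CPM, and Atp5g1, a subunit c gene of ATP synthase, higher in culture at 17.1 and 12.8 against 47.1 and 109 CPM.

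The tricarboxylic acid cycle and fatty acid oxidation lists behaved alike. Their medians were 1.38 and 1.17 against ETOH cells and 0.02 and 0.12 against siNC cells. The counts of the cycle list were 1 and 0 against siNC cells alone and 11 and 0 against ETOH cells alone, and those of the oxidation list 3 and 1 against siNC cells alone and 13 and 1 against ETOH cells alone. They were 2 and 0 with TMM factors or size factors in the cycle list and 5 and 0 with TMM factors or size factors in the oxidation list. In the cycle list of 18 genes only Pdk4, a regulator, was separated, at 4745 and 3902 against 709 and 253 CPM. In the oxidation list of 23 the separated genes were Cpt1b, Acsl5 and Acot2 on the tissue side and Cpt1a on the culture side, at 16.7 and 12.3 against 58.9 and 38.8 CPM. Of 13 protein genes of mitochondrial DNA, 3 were higher in tissue, with a median of 3.12 against ETOH cells and 0.89 against siNC cells. The counts were 3 and 2 against siNC cells alone and 12 and 0 against ETOH cells alone, and 3 and 0 with TMM factors and 5 and 0 with size factors. The cytochrome b gene mt-Cytb read 22952 and 28233 against 1009 and 11348 CPM. These genes share sequence with nuclear copies (63.9% of the 31-base words of mt-Co1 occur in other annotated genes), and their counts depend on how such reads were assigned.

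Lipogenesis genes were separated about as often as all genes, of which 6.95% were higher in tissue and 13.9% in culture. Of the 18 lipogenesis genes, 1 was higher in tissue, 3 in culture and 6 lay apart by less than 2-fold. The other 8 overlapped, among them Fasn and the desaturase Scd1, and the median of the list was 0.14. The counts were 1 and 5 against siNC cells alone and 3 and 3 against ETOH cells alone, and 3 and 3 with TMM factors or size factors. The mice themselves differed here: the citrate lyase gene Acly read 1757 and 772 CPM, and Pnpla3 121 and 33.8. Elovl6, which elongates palmitate, read 546 and 317 against 7.05 and 87.2 CPM. Scd2, Fads1 and Fads2, which make unsaturated fatty acids, were higher in culture, the last pair at 31.5 and 26.4 against 91.3 and 181 CPM and 8.44 and 8.20 against 23.4 and 63.3 CPM. Srebf1, the regulator of the pathway, read 198 and 152 against 378 and 1306 CPM, which fell just short of a 2-fold gap.

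The cholesterol synthesis list lay toward culture. Of 20 genes, 8 were higher in culture, 0 in tissue, 10 lay apart by less than 2-fold and 2 overlapped, with a median of -1.38. The counts were 0 and 13 against siNC cells alone and 2 and 10 against ETOH cells alone, and 0 and 7 with TMM factors and 1 and 7 with size factors. Sqle, which makes squalene epoxide, read 14.8 and 12.8 CPM in the mice, 79.97 in ETOH cells and 81.1 in siNC cells. Within the cultures the values were almost equal, 5.37-fold above the nearest mouse. Hsd17b7 read 10.6 and 8.51 against 92.5 and 54.6 CPM, Msmo1 13.1 and 11.5 against 60.2 and 67.03 CPM and Idi1 9.09 and 10.2 against 42.1 and 32.2 CPM. Fdft1, the squalene synthase, lay the other way, with a gap under 2-fold, at 197 and 139 against 50.2 and 90.4 CPM. A sterol element, written TCACNCCAC and searched on both strands of the same 250 bases, was in 1 of 14 genes of the list (Hmgcs1) against 1.22% of all genes, and in 0 of the 4 separated genes in the table.

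Genes of the extracellular matrix lay far toward culture. Of 30 collagen and matrix genes, 25 were higher in culture, 1 in tissue and 4 lay apart by less than 2-fold, with a median of -3.55. Col1a1, a chain of type I collagen (chromosome 11, 94936224 to 94953042), read 124 and 98.6 CPM in the mice, 8752 in ETOH cells and 2014 in siNC cells. Fn1, fibronectin, read 16.2 and 18.1 CPM in the mice, 3345 in ETOH cells and 1051 in siNC cells, and Lox, which crosslinks collagen, read 17.9 and 17.4 CPM in the mice, 4963 in ETOH cells and 379 in siNC cells. For all 3 the ETOH library was the highest, siNC cells came next, and the mice lay 16.2-, 57.6- and 21.03-fold below siNC. Thbs1, thrombospondin, read 129 and 179 against 9931 and 654 CPM, Bgn, the proteoglycan biglycan, 61.9 and 43.2 against 2050.0 and 1100.0 CPM, and Col6a1 123 and 106 against 1239 and 947 CPM.

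Among the collagens of the list, Col4a1 and Col4a2, chains of basement membrane collagen IV, were the members not separated, at 1313 and 1158 against 3044 and 1338 CPM and 830.4 and 779 against 2009 and 1193 CPM. Col18a1, another collagen of basement membranes, was higher in culture at 34.7 and 32.5 against 316 and 114 CPM. Timp1, an inhibitor of matrix proteases, was higher in culture at 3.13 and 4.26 against 135 and 86.6 CPM and the protease Mmp3 was higher in tissue at 4.90 and 3.82 against 0.50 and 0.054 CPM. The median was -4.42 against ETOH cells and -2.62 against siNC cells.

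Fibroblast and precursor markers were themselves split, 8 of 16 higher in culture and 4 in tissue. Pdgfra and Pdgfrb, growth factor receptors of precursor cells, read 12.9 and 9.64 against 168 and 39.3 CPM and 41.6 and 33.5 against 301 and 96.1 CPM, Thy1 12.1 and 10.3 against 135 and 68.9 CPM, Cd248 3.01 and 1.69 against 75.1 and 56.04 CPM and Fbn1, fibrillin, 14.8 and 10.2 against 1282 and 183 CPM. On the tissue side were Cd34 at 44.98 and 48.00 against 2.14 and 1.08 CPM, Lum, lumican, at 26.98 and 21.4 against 1.17 and 5.85 CPM, Clec3b at 22.96 and 15.8 against 7.49 and 0.54 CPM and Pi16, of a precursor found around vessels, at 4.07 and 2.25 against 0.57 and 0.92 CPM. Cd34 also marks endothelial cells. Dlk1, a preadipocyte gene, overlapped at 14.8 and 12.6 against 12.7 and 56.3 CPM. Summed over 17 markers the level was 879.8 and 752 CPM in the mice, 14205 in ETOH cells and 3788 in siNC cells. Those sums moved with the matrix genes above, and share Col1a1, Col3a1 and Fbn1 with them.

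Genes linked to actin fibres and to YAP and TAZ, transcriptional coactivators that respond to cell tension, were 10 of 28 higher in culture and 0 in tissue. The median was -1.35, or -2.44 against ETOH cells and -0.84 against siNC cells. The counts were 0 and 11 against siNC cells alone and 0 and 23 against ETOH cells alone. Ctgf, a standard YAP target, read 10.6 and 7.63 CPM in the mice, 1370.1 in ETOH cells and 189.5 in siNC cells. Acta2, smooth muscle actin, read 24.6 and 13.2 CPM in the mice, 1045 in ETOH cells and 473 in siNC cells, and Ankrd1, another target, 0.18 and 0.19 against 24.4 and 12.3 CPM. Both mice were low in each, with 17.8-fold between the nearest libraries for Ctgf and 19.2-fold for Acta2. The Ankrd1 values of the mice stand for 3 reads each. Tpm2 and Myl9, parts of the contractile fibre, read 16.7 and 17.8 against 89.9 and 85.3 CPM and 18.2 and 11.7 against 110.0 and 66.9 CPM. Cyr61, another YAP target, overlapped at 72.4 and 142 against 805 and 76.5 CPM, because mouse 2 exceeded siNC cells. Vcl, Itga5, Tead1 and Actb overlapped as well, with ETOH cells the highest library.

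Myl9 is shown as an example of a promoter with a CArG box, the site of serum response factor, which acts on contractile genes. The window, chr2:156775214-156775463 on the plus strand, is written like those above with the box in capitals, 161 bases before the start.
Myl9: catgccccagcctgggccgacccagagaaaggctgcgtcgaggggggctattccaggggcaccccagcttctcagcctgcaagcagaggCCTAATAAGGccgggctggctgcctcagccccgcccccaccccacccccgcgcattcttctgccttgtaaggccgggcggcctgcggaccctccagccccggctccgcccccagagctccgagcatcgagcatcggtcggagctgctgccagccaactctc
The box, searched on both strands, was in 4 of the 22 genes of the list found in the table (18.2%) against 1.62% of all genes. The 4 were Myl9, Actg1, Vcl and Cnn2, so 1 of the 8 separated genes in the table had it.

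Cell cycle genes were higher in culture in 26 of 30 cases, with 0 higher in tissue and a median of -3.15. Mki67, a marker of dividing cells, read 5.49 and 2.88 CPM in the mice, 43.6 in ETOH cells and 38.9 in siNC cells, and Top2a, a topoisomerase of replicating cells, 2.36 and 2.25 CPM in the mice, 29.6 in ETOH cells and 45.8 in siNC cells. The nearest libraries were 6.97- and 12.1-fold apart. Ccnb1, a cyclin of mitosis, read 0.59 and 0.31 against 9.19 and 17.9 CPM and Rrm2, which makes deoxynucleotides, 2.48 and 2.69 against 31.5 and 26.7 CPM. Ccnd2, a cyclin of G1, read 25.5 and 21.8 against 523 and 66.5 CPM. Ccnd1 overlapped, with 9.09 and 9.89 against 81.9 and 6.39 CPM, and so did Cenpa. The 60 histone genes expressed while DNA is copied took 0.0109% and 0.0102% of the reads in the mice. They took 0.105% in ETOH cells and 0.0599% in siNC cells. Small nuclear and nucleolar RNA genes (snRNA, snoRNA and scaRNA) took 0.00528% and 0.00596% in the mice, 0.0267% in ETOH cells and 0.00268% in siNC cells. What the oligo(dT) enrichment contributed to these shares was not tested.

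Inhibitors of the cycle went different ways, in a list of 16 senescence and growth arrest genes with 1 higher in tissue and 5 in culture. The counts were 2 and 5 against siNC cells alone and 2 and 9 against ETOH cells alone. Cdkn2a, the locus of p16 and ARF, read 0 and 0.25 against 21.6 and 9.10 CPM and its neighbour Cdkn2b 0.71 and 0.63 against 36.8 and 23.7 CPM, both higher in culture. Cdkn1a, the gene of p21, was higher in tissue at 581 and 555 against 254 and 99.7 CPM, while Cdkn1b and Cdkn1c lay apart by less than 2-fold and Cdkn2c overlapped. In the same list Igfbp7 was higher in culture at 133 and 127 against 388 and 405 CPM.

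Genes of serine synthesis and the integrated stress response went both ways, 5 of 22 higher in tissue and 8 in culture. The enzymes were on the culture side: Psat1, of serine synthesis, read 5.55 and 6.63 CPM in the mice, 58.7 in ETOH cells and 102 in siNC cells, Aldh1l2, of mitochondrial folate metabolism, 0.30 and 0.81 against 37.5 and 19.98 CPM, Mthfd2 8.26 and 10.3 against 26.3 and 48.1 CPM, and the amino acid transporters Slc7a5 and Slc7a11 3.42 and 5.32 against 64.99 and 33.7 CPM and 0.47 and 0.63 against 46.6 and 4.44 CPM. Phgdh, the first enzyme of the pathway, was higher in culture with 2.23-fold between the nearest libraries, and had 55.9% of its 31-base words shared with other annotated genes. Slc3a2, the partner of Slc7a5, was higher in tissue, at 399.8 and 411 against 143 and 138 CPM. Transcription factors of the response were on the tissue side or overlapped (Atf5, Ddit3): Atf4, which drives these enzymes at the level of its protein, read 466 and 556 against 135 and 209.9 CPM, and Cebpb 2166 and 2099 CPM in the mice, 163 in ETOH cells and 212 in siNC cells. For Cebpb, a factor of adipogenesis too, the nearest libraries were 9.88-fold apart. Ppp1r15a, a phosphatase subunit that ends the response, read 150.1 and 203 against 33.3 and 27.5 CPM.

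Of 12 genes of cytosolic heat shock, 5 were higher in tissue and 0 in culture, with a median of 1.23. The cochaperone gene Bag3 read 396 and 476 against 94.5 and 88.4 CPM, Hsph1 108 and 163 against 27.7 and 28.8 CPM and Dnajb1 128 and 172 against 63.8 and 45.8 CPM. Hspb1 read 275 and 346 against 102 and 34.7 CPM, with 52.3% of its 31-base words in other genes. Of 16 chaperones of the endoplasmic reticulum, 1 was higher in tissue and 2 in culture, near the shares of all genes, 6.95% and 13.9%. Another 11 lay apart by less than 2-fold and 2 overlapped. The counts were 1 and 7 against siNC cells alone and 1 and 4 against ETOH cells alone, and 1 and 1 with TMM factors or size factors. Pdia4 was higher in culture at 22.5 and 19.9 against 148 and 169 CPM and Dnajb9 higher in tissue at 159 and 170.3 against 60.04 and 58.5 CPM. Of 17 hypoxia-responsive genes, 6 were higher in culture and 1 in tissue, and the counts were 2 and 6 against siNC cells alone and 1 and 11 against ETOH cells alone. The oxidase of protein folding Ero1l read 24.9 and 25.8 against 244 and 323 CPM, Egln3, an oxygen-sensing hydroxylase, 25.8 and 19.1 against 167 and 197 CPM, and Pdk1 95.3 and 56.1 against 251 and 239 CPM. Epas1, the gene of HIF-2 alpha, which endothelial cells express strongly, was the member higher in tissue, at 374 and 338 against 141 and 139 CPM. Vegfa, a target of the same pathway, read 585 and 834 against 367 and 525 CPM, with the mice above by less than 2-fold.

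**Figure D4:**
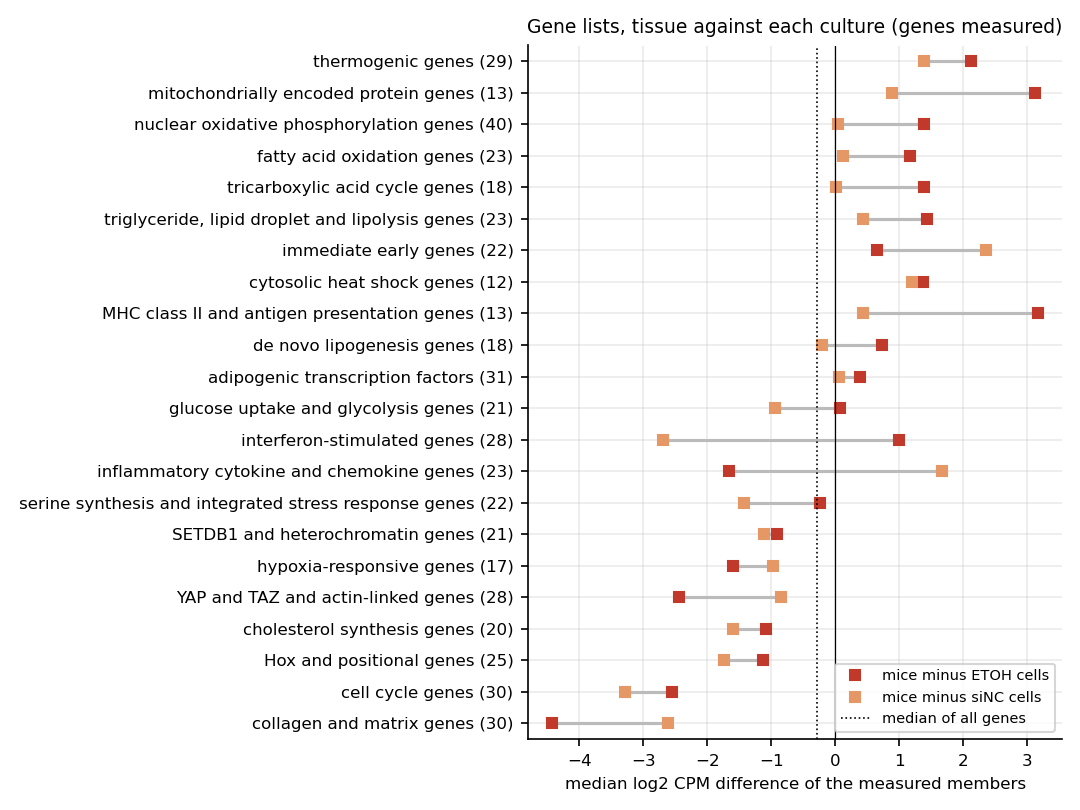
Median log2 CPM difference of the measured members of 22 gene lists, from each culture to the mean of the mice, with the number of genes in brackets. Thermogenic genes lie to the right of the dotted line (the median of all genes, -0.29) against both cultures, cell cycle and matrix genes lie to its left against both, and interferon and inflammatory genes lie on opposite sides of it.

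Markers of cells other than adipocytes were the most strongly separated genes in tissue. Of 16 endothelial markers, 15 were higher in tissue, with a median of 6.25. Pecam1, an adhesion protein of endothelial cells, read 168 and 189.9 CPM in the mice, 0.60 in ETOH cells and 0.16 in siNC cells, Cdh5, their cadherin, 199.6 and 246 against 1.24 and 0.87 CPM, and Tie1 156 and 184 against 0.13 and 0.22 CPM. Flt1, a VEGF receptor, was the exception, with 156 and 155 against 87.4 and 2.38 CPM and a gap under 2-fold. The summed level was 1871 and 1909 CPM in the mice, 156 in ETOH cells, of which Flt1 gave 87.4, and 41.96 in siNC cells. Of the pericyte genes, Rgs5 read 304 and 306 against 14.9 and 1.62 CPM, Kcnj8 18.8 and 16.5 against 0.47 and 1.57 CPM and Abcc9 37.8 and 27.5 against 2.84 and 4.55 CPM, all higher in tissue, while the contractile genes of the mural list (Acta2, Cnn1 and Tagln) were higher in culture. The Cnn1 and Tagln calls were lost with TMM and with size factors, and the Acta2 call was not. The counts of the list, 5 and 3, were 5 and 3 against siNC cells alone and 5 and 6 against ETOH cells alone. Tagln is uncertain, with 67.9% of its exon bases inside other annotated genes.

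Most of the 12 protein-coding genes with the widest gap and at least 20 CPM in both mice were genes of red blood cells, endothelium or antigen presentation. Beside Slc27a2 they were the globin genes Hba-a1, Hbb-bs and Hbb-bt and the endothelial genes Sox17, Gpihbp1, Cldn5, Tie1, Robo4 and Pecam1. The others were H2-Aa and the retinol binding protein gene Rbp7. Which cells gave the Rbp7 reads was not tested. Hba-a1, of alpha globin, read 298 and 274 CPM in the mice and had 0 reads in both cultures, where 3 reads would be 0.1003 and 0.1624 CPM, a limit that covers counting error only. The globin genes share sequence with their copies, so the split between them is uncertain. Sox17, a transcription factor of arteries, read 119 and 114 CPM with 0 reads in the cultures.

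Immune cells showed a different order. Antigen presentation by MHC class II was higher in tissue: H2-Aa read 173 and 66.4 against 0.067 and 0.11 CPM, its culture values standing for 2 and 2 reads, and Cd74, the invariant chain, 359 and 213 against 0.87 and 0.65 CPM. Of 13 genes of the list, 6 were higher in tissue (6 and 0 against siNC cells alone and 12 and 0 against ETOH cells alone, tissue then culture), and the class I genes H2-K1, H2-D1 and B2m overlapped. The mice differed here, mouse 1 being above mouse 2 in all 13. Markers of T and NK cells summed to 27.6 and 12.6 CPM in the mice and to 0.80 and 1.52 in the cultures. Of 8 markers of B and plasma cells, Igkc read 14.8 and 6.57 against 0 and 0 CPM, while Ighm overlapped, with siNC cells the highest library, at 3.60 and 2.88 against 2.24 and 46.2 CPM. Nos2, the inducible nitric oxide synthase, was higher in tissue at 6.61 and 6.82 against 1.04 and 0.054 CPM.

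Macrophage markers overlapped in 14 of 16 cases because the cultures lay on both sides of the mice. Their summed level was 404 and 258 CPM in the mice, 3765 in ETOH cells and 59.5 in siNC cells. The receptor gene Csf1r read 26.7 and 15.6 CPM in the mice, 165 in ETOH cells and 5.31 in siNC cells, Adgre1, which encodes F4/80, 14.6 and 7.26 against 139 and 1.95 CPM, and Lyz2, lysozyme, 118 and 78.7 against 2706 and 28.9 CPM. These 3 were highest in ETOH cells and lowest in siNC cells. For Lyz2, 32.8% of the 31-base words occur in other genes. The counts were 14 and 0 against siNC cells alone and 0 and 13 against ETOH cells alone. The part of macrophages in the other differences of the ETOH library was not tested.

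**Figure D5:**
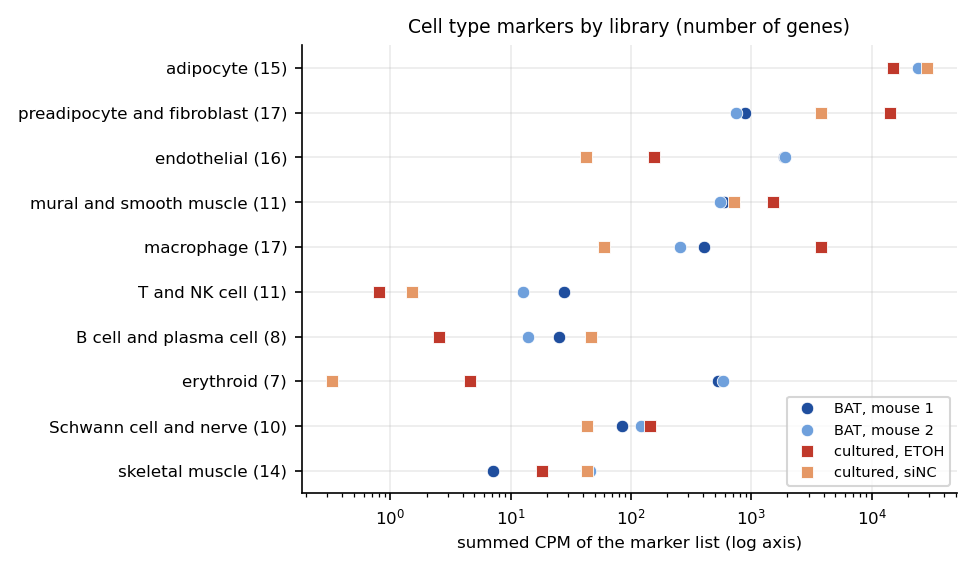
Summed CPM of 10 marker lists in each library, on a log axis, with the number of genes in brackets. Adipocyte markers lie within 2-fold in the 4 libraries, endothelial and erythroid markers are higher in both mice, fibroblast markers are higher in both cultures, and macrophage markers are highest in ETOH cells and lowest in siNC cells.

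The cultures differed in inflammation and interferon response. Of 28 interferon-stimulated genes, 0 were higher in tissue, 0 in culture and 25 overlapped, and the counts were 0 and 22 against siNC cells alone and 8 and 0 against ETOH cells alone. The summed level was 646 and 401 CPM in the mice, 264 in ETOH cells and 2337 in siNC cells, with Irf7, a regulator of the response, at 25.3 and 13.02 against 7.92 and 318 CPM. Of 23 inflammatory cytokine and chemokine genes, 2 were higher in tissue and 3 in culture, near the shares of all genes, 6.95% and 13.9%. Their median was -1.66 against ETOH cells and 1.67 against siNC cells. The counts were 13 and 4 against siNC cells alone and 3 and 11 against ETOH cells alone. Ccl2, a monocyte attractant, read 7.67 and 20.3 against 269.5 and 5.47 CPM. Of that list Csf1, the growth factor of macrophages, Saa3 and Ptgs2 were higher in culture, Csf1 at 26.3 and 45.8 against 1228 and 247 CPM, while complement C3 and Nos2 were higher in tissue, C3 at 674 and 577 against 264 and 67.1 CPM.

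Among separated genes with at least 20 CPM in the higher culture, the 5 with the largest excess of ETOH over siNC cells were Ereg, Cd93, Kif26b, Saa3 and A2m. Ereg, the growth factor epiregulin, read 0 and 0 CPM in the mice, 110.5 in ETOH cells and 1.08 in siNC cells. Cd93, an endothelial and myeloid gene, was higher in tissue and read 132 and 221 CPM in the mice, 45.5 in ETOH cells and 0.49 in siNC cells. The 5 with the largest excess of siNC over ETOH cells were Fabp3, Elovl6, Cfd, Nrn1 and Lgr6. The values of Fabp3, Elovl6 and Cfd, genes of fat cells, were given above, and all 3 were still lower in siNC cells than in both mice.

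The 12 genes with the widest gap on the culture side included Cemip, Spp1, Gpr176, Tmem45a, Cdh11, Fn1, Actg2, Ndrg4, Cdkn2b, Prlr and Mmp11. Cemip, which degrades hyaluronan, had 0 reads in both mice and read 175 CPM in ETOH cells and 29.2 in siNC cells. Spp1, osteopontin, which macrophages and matrix cells make, read 0.30 and 0.31 CPM in the mice, 809 in ETOH cells and 45.5 in siNC cells. Cdh11, a cadherin of mesenchymal cells, read 0.77 and 0.69 against 220.2 and 53.6 CPM, and the enteric smooth muscle actin Actg2 0.71 and 0.063 against 81.8 and 43.6 CPM. In each of these genes ETOH cells were the highest library and siNC cells came next. Beside the 0 reads of Cemip, the mouse values of Spp1, Cdh11 and Actg2 stand for between 1 and 13 reads.

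Of 31 adipogenic transcription factors, 7 were higher in tissue and 2 in culture, against 6.95% and 13.9% of all genes. The median was 0.39. The counts were 9 and 4 against siNC cells alone and 12 and 4 against ETOH cells alone. Irf4, which links fasting and cold to thermogenic genes, read 127 and 87.7 against 1.47 and 6.82 CPM, Gata2 26.2 and 19.2 against 2.01 and 1.08 CPM and Id1 137 and 159 against 33.5 and 45.3 CPM. Tbx15 and Foxc2, factors of mesenchymal development, were higher in culture, at 2.24 and 2.32 against 36.3 and 18.6 CPM and 0.24 and 0.50 against 47.3 and 5.41 CPM. Among 31 secreted factors, 5 were higher in tissue and 6 in culture, against the same shares of all genes. The counts were 5 and 11 against siNC cells alone and 11 and 9 against ETOH cells alone. Nrg4, a growth factor of brown fat, was higher in tissue at 168 and 118 against 13.3 and 21.3 CPM, and Igf1, Igfbp2, Igfbp4, Slit2, Apln and Agt were higher in culture, Igf1 at 29.2 and 13.4 against 202 and 141 CPM and Agt, angiotensinogen, at 2.18 and 2.57 against 45.5 and 54.6 CPM. Leptin, Lep, overlapped with 17.4 and 20.9 against 1.44 and 125 CPM, siNC cells being the highest library and ETOH cells the lowest.

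Genes of the circadian clock were for the most part not separated. Of 19 clock genes, 5 were higher in tissue and 1 in culture, against 6.95% and 13.9% of all genes. Another 6 lay apart by less than 2-fold and 7 overlapped. The counts were 7 and 1 against siNC cells alone and 8 and 5 against ETOH cells alone. Per1 and Per2, which oppose the clock's own activator, read 223 and 252 against 38.2 and 44.6 CPM and 47.7 and 52.3 against 17.02 and 9.21 CPM, and Per3 12.9 and 10.1 against 26.1 and 67.2 CPM, the last higher in culture by a gap that was under 2-fold with each of the other scalings. Ciart, Hlf and Nfil3 were also higher in tissue, at 13.5 and 19.6 against 1.17 and 4.12 CPM, 29.1 and 33.2 against 2.61 and 11.2 CPM and 210.0 and 125 against 55.6 and 55.7 CPM. The hour of collection was not given for any library, and a clock phase cannot be told apart from a level here.

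SETDB1 works with partners in heterochromatin, and 8 of 21 such genes were higher in culture and 0 in tissue, with a median of -0.94. Atf7ip, the partner that stabilises SETDB1, read 12.99 and 14.1 against 52.2 and 43.4 CPM, Cbx5, the HP1 alpha gene, 31.5 and 26.8 against 134 and 80.7 CPM, and the DNA methyltransferase genes Dnmt1 and Dnmt3a 11.2 and 9.07 against 27.9 and 37.3 CPM and 28.5 and 23.7 against 79.7 and 79.5 CPM. Trim28, which recruits SETDB1, overlapped at 93.1 and 106 against 104 and 154 CPM. Several of the separated genes (Dnmt1, Hells, Suv39h1) are also known to be higher in dividing cells, and cell cycle genes moved with them, as given above. What cell division contributed was not tested.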

How the data were processed

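RNA-seq libraries of 3 independent experiments were deposited as 3 kinds of table. The table with the ETOH library holds read counts per gene as the authors deposited them. The BAT and siRNA tables hold counts the authors divided by a factor per library (unit: signal), from which whole reads were recovered for 100% of values within 0.05 reads. Per the submitters' processing notes, Trimmomatic 0.39, STAR 2.7.10a, featureCounts 2.0.3 and DESeq2 1.36.0 were used with GRCm38 (mm10), and strand handling was not given in the sources used here. Gene length as the authors deposited it was used for ratios per kilobase.

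Tables were joined on 29386 gene IDs. For 24 genes a symbol stored as a date was put back, and an ID absent from a table was taken as 0 reads (1.23% of tested genes, but 116 of the 972 genes higher in tissue, or 11.9%, and 27 of the 1944 higher in culture, or 1.39%). Counts were divided by the library total (15979479 to 29911734 reads), and log2 values used a prior count of 2. Genes with at least 1 CPM in at least 2 of the 4 libraries were kept. A gene was called when both tissue libraries lay at least 2-fold above, or below, both culture libraries. Named genes were list members, the 12 protein-coding genes with the widest gap each way at 20 CPM or more, the 5 with the most CPM on each side, and the 5 with the largest ratio each way between the cultures. The members and the 47 gene lists and 25 pairs were chosen with earlier results of these data known. Some genes that the rule names are not reported here. Exon overlap and shared 31-base words were computed from GENCODE M21, and promoters came from RefSeq. Replicates are 2 mice on the tissue side. The culture libraries are 1 of each experiment, and nothing in the labels says whether cultures were pooled.

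Alternatives were TMM (edgeR 4.0.16) and DESeq2 1.42.0 size factors, CPM of nuclear genes, other filters, prior count 0.5, other fold thresholds, each library left out, and all 9 libraries. The procedure was tested on simulated data. Python 3.11.15 and R 4.3.3 were used.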

Additional observations from a re-analysis of the deposited data

How the results depend on the processing

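No paired analysis was possible because tissue and culture came from separate experiments that share no animals or numbering, and no result comes from a test. Against 972 genes higher in tissue and 1944 in culture (33.33% and 66.67% of separated genes), TMM factors gave 1289 and 1437 (47.29% and 52.71%) and median-of-ratios size factors 1342 and 1384 (49.23% and 50.77%), and moved the median of all genes from -0.29 to -0.02 and 0.02. CPM of nuclear genes gave 1135 and 1738, CPM of nuclear protein-coding genes, chosen after seeing the data, 1081 and 1851, and a prior count of 0.5 gave 990 and 1975. A filter of 10 CPM left 541 and 936, no filter 1408 and 2918, a 4-fold gap 500 and 727, and any gap 2934 and 5680. These follow from the number of genes tested and the gap asked for. Leaving out 1 library at a time gave 1108 to 2168 genes in tissue and 2195 to 3815 in culture. With all 9 libraries, including those with Setdb1 deleted or knocked down, the counts were 666 and 1300, and 9 thermogenic genes were higher in tissue.

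Of 283 separated named genes, 262 stayed separated with TMM factors, 258 with size factors and 220 with all 9 libraries. All 283 stayed so when a library was left out, but this could hardly fail, since fewer libraries then have to lie apart. In these settings 0 reversed, and the genes had been chosen for a gap of at least 2-fold, which left little room for a reversal. Among the list medians of at least 1 in size, 2 reversed without siNC cells and none in the other settings, to -0.49 for lymphatic endothelial markers (1.30 with all, 3.00 without ETOH cells) and -0.74 for neutrophil markers (1.40 with all, 3.38 without ETOH cells). Smaller medians changed sign more often: of 23 under 1 in size, 6 did so without siNC cells, 7 without ETOH cells, 6 without mouse 1, 0 without mouse 2, 1 with TMM factors, 2 with size factors and 4 with all 9 libraries. Without siNC cells the macrophage median went from 0.32 to -1.75 and the interferon median from -0.97 to 0.99, and without ETOH cells the inflammatory median went from -0.55 to 1.65. The cause was not tested. Depth limits genes with few reads, since 3 reads are 0.177 and 0.188 CPM in the mice and 0.1003 and 0.1624 in the cultures, and 108 separated genes had 0 reads on the whole lower side.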

Other observations

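Imprinted genes, which are read from the allele of a single parent and include many growth regulators, lay toward culture in 6 of 21 cases and toward tissue in 1. Of all genes, 13.9% were higher in culture and 6.95% in tissue. The median was -1.29 against -0.29 for all genes. The counts, tissue first, were 3 and 8 against siNC cells alone and 1 and 13 against ETOH cells alone, and 1 and 4 with TMM factors or size factors. H19, a long noncoding RNA of fetal tissue, read 0.77 and 0.50 CPM in the mice, 352 in ETOH cells and 29.2 in siNC cells. Grb10, which restrains insulin signalling, read 22.5 and 19.2 against 378 and 118 CPM, Peg3 59.6 and 33.5 against 152 and 122 CPM and Mest 2.83 and 3.50 against 19.96 and 25.7 CPM, again with both cultures above both mice, for Peg3 by under 2-fold with the other scalings. Gnas, the gene of the G protein that couples beta-adrenergic receptors to cyclic AMP, was the member higher in tissue, at 423 and 439 against 38.4 and 106 CPM. Dlk1, Igf2r, Ndn and Impact overlapped.

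Hox and other positional genes keep a record of where in the body a cell comes from. Of 25 measured, 8 were higher in culture and 1 in tissue, against 13.9% and 6.95% of all genes. Another 9 lay apart by less than 2-fold and 7 overlapped. The counts, tissue first, were 1 and 16 against siNC cells alone and 4 and 9 against ETOH cells alone, and 2 and 6 with TMM factors and 2 and 5 with size factors. Tbx5, a factor of the forelimb and upper trunk, read 7.08 and 5.63 against 0.067 and 0.38 CPM and was the member higher in tissue. En1 and Shox2 were higher in culture, at 0.53 and 0.31 against 13.5 and 3.79 CPM and 1.00 and 0.19 against 8.42 and 8.50 CPM. Hoxa5 overlapped at 74.5 and 38.3 against 23.2 and 60.8 CPM. The depot from which the cultured precursors were taken was not given in the labels.

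Glucose uptake and glycolysis held 11 overlapping genes of 21, with 1 higher in tissue and 1 in culture, against 6.95% and 13.9% of all genes. The counts were 1 and 9 against siNC cells alone and 6 and 2 against ETOH cells alone. Hk2 was higher in tissue at 545 and 673 against 239 and 193 CPM, and the lactate exporter Slc16a3 was higher in culture at 6.85 and 9.14 against 92.8 and 35.5 CPM. Slc2a4, the insulin-responsive glucose transporter, overlapped at 459 and 446 against 168 and 459 CPM.

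Among markers of nerves, Mbp, a protein of the myelin sheath, was higher in tissue, at 46.04 and 60.4 against 15.5 and 13.3 CPM. The counts of that list were 2 and 1, and 2 and 1 against siNC cells alone and 2 and 4 against ETOH cells alone. Sox10, the Schwann cell factor, read 3.48 and 3.07 against 13.6 and 4.39 CPM, with a gap under 2-fold. Th, the enzyme of noradrenaline synthesis in nerves whose cell bodies lie outside the tissue, was at or below 2 reads in every library. Several skeletal muscle genes were higher in mouse 2 than in mouse 1: Acta1 overlapped the cultures at 1.59 and 11.95 against 2.98 and 5.31 CPM, and Myh1 did at 0 and 4.69 against 0.37 and 1.14 CPM.

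Among glucocorticoid-responsive genes the cultures differed from each other. Fkbp5 overlapped at 129 and 95.6 against 142 and 13.5 CPM, and Sgk1 read 326 and 295 against 240.1 and 9.80 CPM, with siNC cells the lowest library for both. The counts of this list of 15 were 2 higher in tissue and 0 in culture, and 9 and 2 against siNC cells alone and 4 and 2 against ETOH cells alone.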
